A study of Homo sapiens with 12 samples.

Results

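The comparison described here asked what silencing of ATF4 together with MESH1 changed in RCC4 cells, relative to silencing of MESH1 alone. RCC4 is an established line from a human clear cell renal carcinoma. The members are the 6 arrays labelled as MESH1-silenced (siMESH1, 3 arrays) or as silenced for both MESH1 and ATF4 (siMESH1+siATF4, 3 arrays), out of 12 arrays in the series. The other arrays are 3 with a non-targeting siRNA (siNT) and 3 with ATF4 silenced alone (siATF4), and they served to show the same step in cells with MESH1. Every group received 40 pmol of siRNA by lipofection and was collected after 72 h as biological triplicates, with a single siRNA against MESH1 and a pool of siRNAs against ATF4. Gene expression was read with Affymetrix human expression arrays, and each gene was the mean of its probe sets that carry exactly 1 gene symbol, which gave 11963 genes.

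ATF4 is the transcription factor through which the integrated stress response acts. Stress kinases that act on the initiation factor eIF2 raise the amount of ATF4 protein, and ATF4 then switches on genes for amino acid uptake and synthesis, for loading of tRNAs and for redox balance. MESH1, the product of HDDC3, removes a phosphate from NADPH in the cytosol, and its loss is known to protect cells from ferroptosis, an iron-dependent death by lipid peroxidation.

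ATF4 transcript served as the check of the labels. Relative to the siNT mean, its log2 values were -0.01, -0.10 and 0.04 on the siMESH1 arrays and -2.27, -2.46 and -2.23 on the siMESH1+siATF4 arrays. The groups did not overlap, and every array that received the ATF4 pool was low. The difference was -2.30 (SE 0.07, limma adjusted p = 2.7e-09, n = 3 per group), a 4.91-fold fall read by 1 probe set. HDDC3 was not analysed here, so MESH1 silencing could not be compared between the groups. How the 40 pmol was shared between the siRNAs in the double silencing is not given in the sources used here. For a gene that moved toward its siNT level, loss of ATF4 and weaker MESH1 silencing therefore cannot be told apart.

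The table holds differences from siNT and no signal levels, so the labelled cell type could not be checked by level. Among 16 measured markers of leukocytes and endothelium, 0 were called, the median difference was -0.02 and the largest was that of CD2, a T cell surface protein (-0.16, adjusted p = 0.38). The 3′ minus 5′ control probe sets, a measure of RNA integrity, differed between the groups by -0.19 for ACTB and -0.10 for GAPDH (exact two-sided permutation p = 0.3 and 0.5), and the 18 hybridisation spike-in probe sets by 0.09 (p = 0.4), where 0.1 is the smallest p that 3 against 3 arrays allow. Their part in the results was not tested.

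Adding ATF4 silencing changed 730 genes by at least 0.5 on the log2 scale (1.41-fold, the size limit the study set) at a limma adjusted p under 0.05, which was 6.1% of the genes tested. Of these, 409 rose (3.42% of the genes tested) and 321 fell (2.68%). A difference of at least 2-fold was reached by 55 of the genes that rose and 38 of those that fell. The arrays of the groups did not overlap for any of the 730, and that was also so for 42.6% of all genes tested. All 730 genes at or past the fold minimum passed the test, the largest adjusted p among them being 0.025, so the fold minimum alone set the count. The split depended on scaling: with arrays centred on 11 housekeeping genes the median of all genes moved by -0.11 and the split was 262 higher to 549 lower, or 32.3% higher against 56.0% on the deposited scale. With TFRC, itself higher by 0.83, left out of the housekeeping genes the share was 47.4%, and with each array centred on its median it was 58.2%.

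The largest fall after ATF4 was that of AKR1B10, an aldo-keto reductase that uses NADPH to reduce aldehydes. Its log2 values were 1.71, 1.78 and 1.71 in siMESH1 and -0.15, -0.25 and -0.34 in siMESH1+siATF4. Every siMESH1 array stood far above siNT and every array of the double silencing slightly below it. The gene fell 3.95-fold (-1.98, SE 0.07, adjusted p = 6.0e-09). BMAL2, a partner of CLOCK in the circadian activator complex, read -1.07, -0.81 and -0.87 in siMESH1 and -2.58, -2.98 and -2.82 in siMESH1+siATF4. BMAL2 was thus already below siNT when MESH1 alone was silenced, and it fell a further 3.68-fold (-1.88, SE 0.10, adjusted p = 5.4e-08). PERP, a desmosome protein and p53 target, read 0.27, 0.30 and 0.38 against -1.61, -1.60 and -1.39. PERP crossed from slightly above to well below siNT, a 3.60-fold fall (-1.85, SE 0.08, adjusted p = 1.9e-08).

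The other large falls covered receptors, membrane proteins and regulators with little in common by textbook function. EPHA7, an ephrin receptor tyrosine kinase, read -0.15, -0.47 and -0.90 in siMESH1 and -2.15, -2.42 and -1.79 in siMESH1+siATF4 (difference -1.61, SE 0.17, adjusted p = 1.5e-05), with a wide spread in siMESH1. SLC17A3, a urate and phosphate carrier of the renal tubule, read -0.18, -0.29 and -0.38 against -1.73, -1.97 and -1.60 (-1.48, SE 0.09). The growth hormone receptor GHR had the widest spread of these genes, with 0.28, 0.69 and -0.15 against -0.81, -0.95 and -1.08 (-1.22, SE 0.20, adjusted p = 6.0e-04). RCBTB1 fell by 1.53, DOCK4, a guanine nucleotide exchange factor for Rac, by 1.45, TMEM50A by 1.44 and the tetraspanin TSPAN12 by 1.39. VSTM4 (-1.33), RSBN1 (-1.31), FLRT3, a leucine-rich repeat adhesion protein (-1.25), and the kinetochore protein CENPQ (-1.25) completed the 15 largest falls. RCBTB1, DOCK4 and RSBN1 were above siNT in siMESH1 (0.52, 0.58 and 0.40) and below it with both silenced (-1.01, -0.87 and -0.91).

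**Figure D1:**
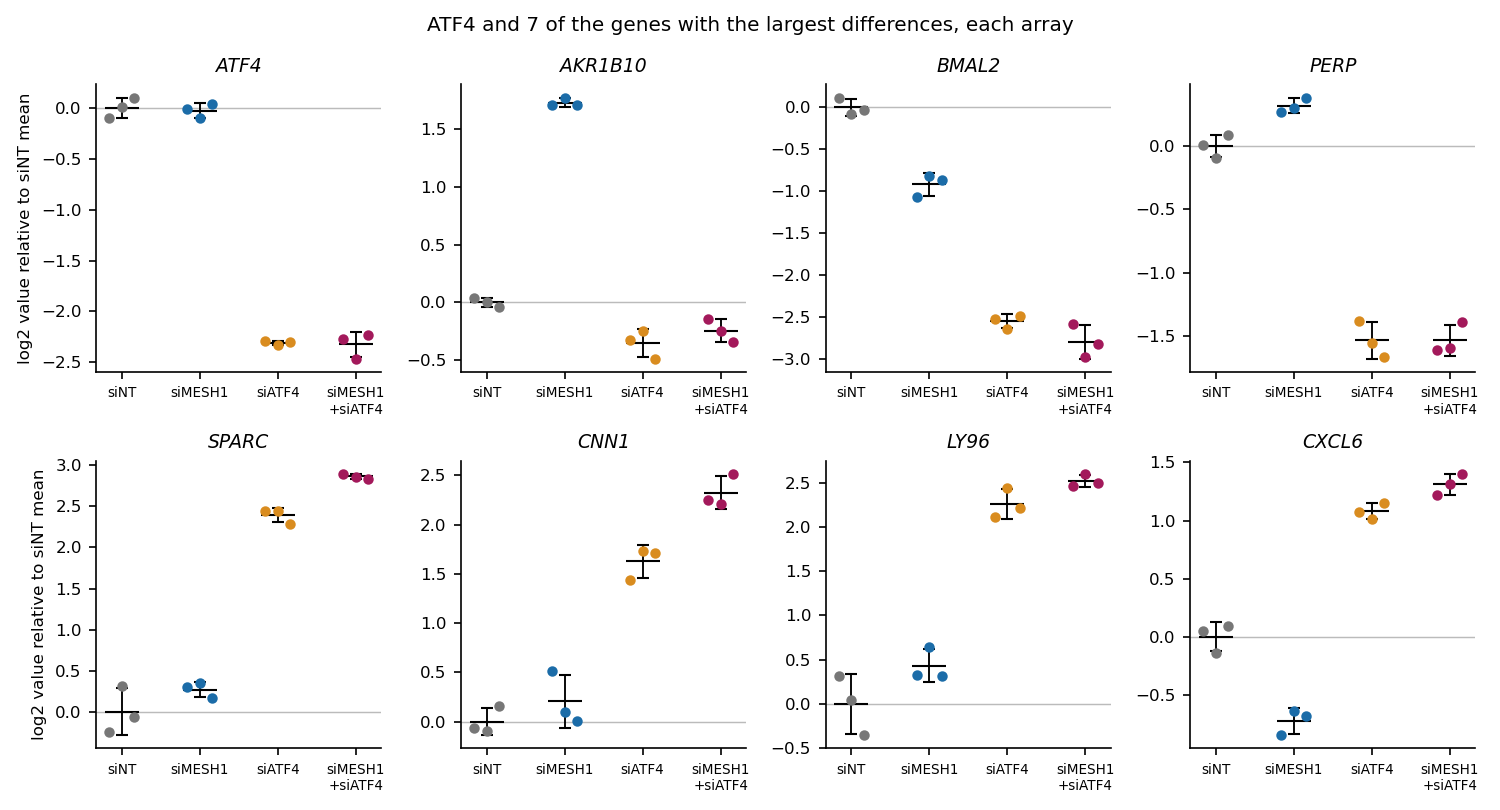
Log2 value relative to the siNT mean (y axis) of ATF4 and 7 genes with large differences on each of the 12 arrays. Points are arrays, horizontal bars are group means and error bars are SD (n = 3). AKR1B10 is high in siMESH1 alone and CXCL6 is lowest there, while SPARC, CNN1 and LY96 are high and ATF4, BMAL2 and PERP low in both groups that received siATF4.

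The largest rise was that of SPARC, a secreted protein that binds collagen. It read 0.30, 0.35 and 0.17 in siMESH1 and 2.89, 2.86 and 2.84 in siMESH1+siATF4. The arrays of the double silencing lay close together and all far above siMESH1, a 6.03-fold rise (2.59, SE 0.11, adjusted p = 1.8e-08) seen by both probe sets. CNN1, an actin-binding protein of smooth muscle, read 0.51, 0.10 and 0.00 against 2.25, 2.21 and 2.51 and rose 4.34-fold (2.12, SE 0.13). LY96, the co-receptor that lets TLR4 sense lipopolysaccharide, read 0.33, 0.65 and 0.32 against 2.46, 2.60 and 2.50 and rose 4.25-fold (2.09, SE 0.15). These 3 genes were at most 0.65 above siNT on any siMESH1 array and rose well past it.

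CXCL6, a chemokine that attracts neutrophils, took a different course. It was below siNT in siMESH1 (-0.85, -0.64 and -0.68) and above it with both silenced (1.22, 1.32 and 1.40), a 4.10-fold rise (2.04, SE 0.08, adjusted p = 8.5e-09). The anticoagulant receptor THBD, the calcium-dependent phospholipid binder ANXA3, the carnitine family carrier SLC22A4 and OLFML3 had the same shape, with siMESH1 means of -0.69, -0.93, -0.56 and -0.60 and siMESH1+siATF4 means of 0.90, 0.60, 0.93 and 0.93. LAMB3, the laminin β3 chain, was the lowest of the large rises in siMESH1, at -1.52, -1.47 and -1.43, and came to 0.14, 0.14 and 0.02 with both silenced (1.57, SE 0.08). MAP1LC3C, a member of the LC3 family of autophagosome proteins, rose by 2.05, the receptor phosphatase PTPRR by 1.94, the hyaluronidase CEMIP2 by 1.54 and the matrix protein EFEMP1 by 1.53. The phospholipase PLA1A (1.47) and the matrix metalloproteinase MMP7 (1.44) completed the 15 largest rises.

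Genes of the integrated stress response and of amino acid supply are the textbook targets of ATF4, and together their lists held both rises and falls. Of 20 measured regulators of the response, 1 rose and 1 fell (5% each, against 3.42% and 2.68% of all genes tested). The median difference was 0.19, against a median of -0.0099 over all genes. STC2, a secreted glycoprotein hormone, read -0.34, -0.32 and -0.35 in siMESH1 and 0.87, 0.86 and 0.80 in siMESH1+siATF4. All 3 arrays of the double silencing were above siNT and all 3 of siMESH1 below it, a 2.26-fold rise (1.18, SE 0.05, adjusted p = 1.5e-08). NUPR1, a small stress-induced chromatin protein, read -0.05, -0.00 and -0.02 against -0.76, -0.72 and -0.94 and fell 1.72-fold (-0.78, SE 0.07, adjusted p = 2.3e-06). Of 14 enzymes of amino acid synthesis and one-carbon metabolism, 12 had values below 0, with a median of -0.19. Under housekeeping centring 3 fell (median -0.30), and on the deposited scale 1 did (7.1%). That gene was ASNS, which makes asparagine, at -0.34, -0.38 and -0.33 in siMESH1 and -1.25, -1.22 and -1.11 with both silenced. ASNS fell 1.79-fold (-0.84, SE 0.07, adjusted p = 1.8e-06).

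Amino acid carriers and tRNA synthetases held calls in both directions. Of 13 carriers, SLC38A1, a glutamine carrier, fell and SLC36A1, a lysosomal and plasma membrane carrier of small neutral amino acids, rose (7.7% each way). SLC38A1 read -0.35, -0.33 and -0.25 against -1.04, -1.04 and -1.01 (-0.72, SE 0.05, adjusted p = 2.3e-07), and SLC36A1 read -0.37, -0.55 and -0.32 against 0.39, 0.49 and 0.51 (0.87, SE 0.07, adjusted p = 2.0e-06). Of 17 cytosolic synthetases 2 fell (11.8%, against 2.68% of all genes tested) and 1 rose (5.9%, against 3.42%), with a median of -0.08. Under housekeeping centring 6 fell and 1 rose (median -0.19), and 5 fell without TFRC among the housekeeping genes. The isoleucyl enzyme IARS1 (-0.25, -0.23 and -0.25 against -0.81, -0.92 and -0.94) fell 1.57-fold, and the tyrosyl enzyme YARS1 (-0.22, -0.28 and -0.24 against -0.78, -0.85 and -0.88) fell 1.50-fold. The tryptophanyl enzyme WARS1, which interferon also induces, read -0.49, -0.52 and -0.48 against 0.22, 0.17 and 0.12 and rose 1.59-fold, with 1 of its 2 probe sets at 0.48, below the fold minimum.

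ATF4 binds a composite C/EBP-ATF element, and the letters TGATGNAA of that element were searched on both strands of RefSeq promoters (GRCh38.p14, 250 bases before to 50 after the start). Of the 8 called genes in the stress response, amino acid and synthetase lists, SLC38A1, IARS1 and ASNS held it, STC2, SLC36A1 and WARS1 did not, and YARS1 and NUPR1 have no entry in the promoter table. The 3 genes with a match all fell. Their sequences up to the start, or to the end of the match where that runs 4 bases past it, are shown on the minus strand in the 5′ to 3′ direction with the match in capitals, because they place the letters relative to the start. The match lies from position -4 to 4 in SLC38A1, from -13 to -6 on the opposite strand in IARS1 and from -68 to -61 in ASNS.
SLC38A1, chr12:46266513-46266766: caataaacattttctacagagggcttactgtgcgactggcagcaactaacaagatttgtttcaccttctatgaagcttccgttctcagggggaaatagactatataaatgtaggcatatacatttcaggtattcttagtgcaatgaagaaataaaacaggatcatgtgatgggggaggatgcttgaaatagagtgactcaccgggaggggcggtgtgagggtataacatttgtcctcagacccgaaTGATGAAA
IARS1, chr9:92293698-92293947: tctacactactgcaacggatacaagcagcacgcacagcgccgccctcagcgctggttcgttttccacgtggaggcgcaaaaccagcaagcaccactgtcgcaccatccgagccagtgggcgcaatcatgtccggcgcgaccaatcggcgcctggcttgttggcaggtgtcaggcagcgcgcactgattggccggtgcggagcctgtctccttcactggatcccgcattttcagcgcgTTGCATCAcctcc
ASNS, chr7:97872409-97872658: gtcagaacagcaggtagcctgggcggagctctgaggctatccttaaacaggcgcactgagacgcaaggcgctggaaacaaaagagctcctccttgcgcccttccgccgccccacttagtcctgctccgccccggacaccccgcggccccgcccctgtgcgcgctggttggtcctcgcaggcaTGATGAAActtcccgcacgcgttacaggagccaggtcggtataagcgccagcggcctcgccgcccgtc
Over all 9563 tested genes with a promoter entry, 2.25% held TGATGNAA, against 8 of 260 genes that fell (3.08%), 5 of 340 that rose (1.47%) and 3.67% of the 27305 promoters in the table. The cyclic AMP response element TGACGTCA, which shares no full match with it, was held by 3.06% of tested genes, 12 of those that fell (4.62%), 8 of those that rose (2.35%) and 1.98% of all promoters. These shares are descriptions of the letters in this window and were not tested.

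Of the stress genes that the study names, none passed the fold minimum in this comparison. ATF3, a transcription factor of the integrated stress response, read 0.37, 0.34 and 0.37 in siMESH1 and 0.63, 0.61 and 0.47 in siMESH1+siATF4. Its difference was 0.21 (95% interval 0.04 to 0.37, adjusted p = 0.060). CTH, which cleaves cystathionine to cysteine, read 0.67, 0.80 and 0.61 against 0.35 on each of the 3 arrays (-0.35, SE 0.09, adjusted p = 0.0095), its probe sets giving -0.53 and -0.16. CTH was therefore lower on every array of the double silencing, by less than the fold minimum in the mean and by more in 1 probe set. DDIT3, which encodes the transcription factor CHOP, read -0.12, -0.12 and -0.14 against 0.30, 0.32 and 0.35 (0.45, SE 0.06, adjusted p = 1.7e-04). HERPUD1, a factor of endoplasmic reticulum (ER) associated degradation, differed by -0.26 (adjusted p = 0.0020), XBP1, the transcription factor spliced by IRE1, by -0.17 (0.035), and DNAJB9, its ER chaperone target, by 0.49 (3.8e-05; probe sets 0.26 and 0.71). Of the 26 measured genes of the ATF6 and IRE1 branches, 1 rose (3.8%, near the 3.42% of all genes tested) and 0 fell, with a median of 0.18. That gene was ERO1A, an ER oxidase, at -1.08, -1.17 and -1.31 against -0.11, -0.29 and -0.41 (0.92, SE 0.08, adjusted p = 4.0e-06).

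Part of the cell cycle genes, already low in MESH1-silenced cells, fell further with ATF4 silenced. Of the 73 cell cycle and mitosis genes on the arrays, 22 fell and 0 rose, which is 30.1% against 2.68% of all genes tested, and the median difference was -0.34, with 9 values above 0. Under housekeeping centring 32 fell. The list median on each array, relative to siNT, was -1.69, -1.67 and -1.69 in siMESH1 and -1.90, -2.11 and -1.95 in siMESH1+siATF4, with no overlap. TRIP13, a checkpoint ATPase, read -1.27, -1.22 and -1.28 against -2.15, -2.39 and -2.27 and fell 2.02-fold. The B-type cyclins CCNB2 (-0.83, SE 0.06) and CCNB1 (-0.60, SE 0.06), which activate CDK1 for mitosis, also fell, as did the spindle protein HMMR (-0.55, SE 0.06), whose value was -0.50, just short of the minimum, without siMESH1+siATF4 replicate 2. In bulk RNA, fewer dividing cells and less transcript per cell cannot be told apart.

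Genes of DNA replication and nucleotide supply moved less. Of 46 measured, 1 fell (2.2%, near the 2.68% of all genes tested) and 0 rose, and the median was -0.12. Under housekeeping centring 4 fell (median -0.23), and 2 did without TFRC. The list median was -1.18, -1.17 and -1.16 on the siMESH1 arrays and -1.24, -1.30 and -1.29 on those of the double silencing. The gene that fell was MCM10, a replication initiation factor, with -2.47, -2.23 and -2.44 against -2.98, -3.23 and -2.66 (-0.58, SE 0.12, adjusted p = 0.0029), and it was at -0.44 without siMESH1+siATF4 replicate 2 and had an adjusted p of 0.11 by the methods' t-test. RRM2, the small subunit of ribonucleotide reductase, stood at -3.67, -3.38 and -3.41 in siMESH1 and -3.30, -3.63 and -3.36 with both silenced, so the groups overlapped. The difference was 0.05 (95% interval -0.17 to 0.28, adjusted p = 0.76), while the 2 probe sets of RRM2 differed in sign (-0.13 and 0.24). The intervals were -0.07 to 0.15 for CDK2, the kinase of S phase entry (0.04), and -0.19 to 0.23 for E2F1, the transcription factor of that step (0.02). The probe sets of E2F1 also differed in sign (-0.04 and 0.08). Of 19 histone genes 0 were called, the largest difference being that of H2AZ2 (-0.48, with 1 probe set at -0.75), while 3 fell under housekeeping centring, H2AZ2 among them, and 2 without TFRC.

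**Figure D2:**
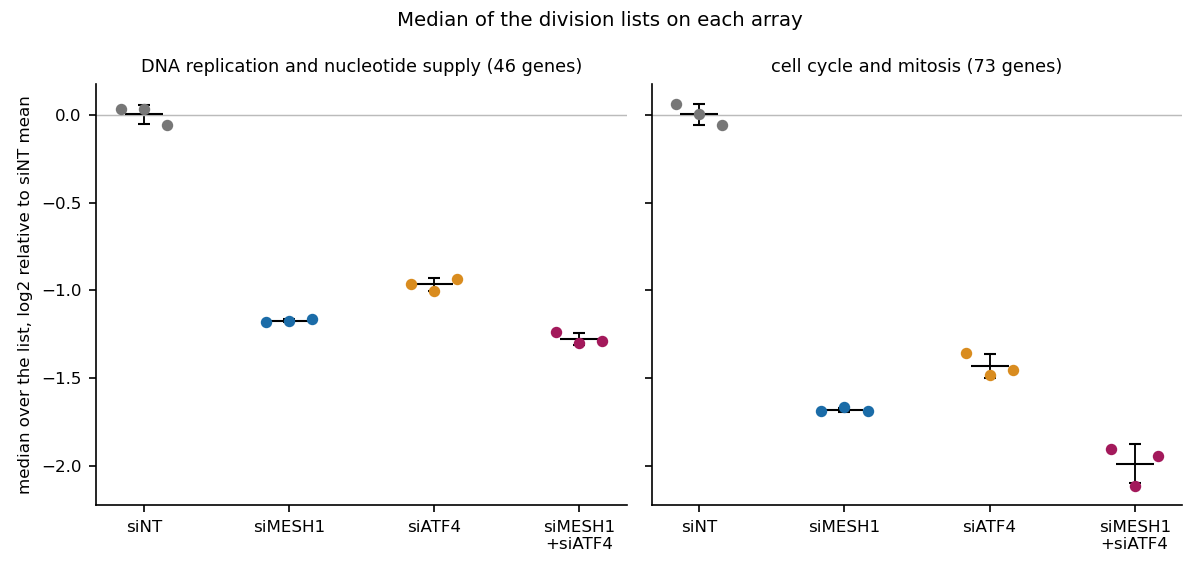
Median over 46 genes of DNA replication and nucleotide supply (left) and 73 genes of the cell cycle and mitosis (right) on each of the 12 arrays, as log2 relative to the siNT mean (y axis). Points are arrays, bars are group means and error bars are SD (n = 3). All silenced groups lie below siNT, and siMESH1+siATF4 lies below siMESH1 in both lists, by more in the cell cycle list.

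NF-kB is the transcription factor family that switches on cytokines, chemokines and adhesion molecules after infection or injury. Of 31 measured cytokines and NF-kB targets 10 rose (32.3% against 3.42% of all genes) and 1 fell, with a median of 0.23. Beside CXCL6, the neutrophil chemokine CXCL2 read -0.25, -0.28 and -0.20 against 0.83, 0.85 and 0.88 and rose 2.14-fold (1.10, SE 0.08). Its neighbour CXCL1 read 0.01, 0.07 and -0.03 against 0.86, 0.71 and 0.78 and rose 1.70-fold. The 3 chemokines were each separated by array, as were all 730 called genes and 42.6% of all genes tested. VCAM1, an adhesion molecule for leukocytes, went the other way, from -0.48, -0.45 and -0.43 to -1.23, -1.28 and -1.22 (-0.79, SE 0.04, adjusted p = 6.8e-08). Under housekeeping centring 5 of the 10 rises remained at or past the minimum.

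Innate sensing, complement and interferon genes also held rises and no falls. Of 21 innate sensors and complement genes 4 rose (19.0%), with a median of 0.17. C3, the central complement component, read between -1.13 and -0.98 on the 3 siMESH1 arrays and 0.35, 0.31 and 0.22 with both silenced, crossing from below to above siNT (1.33, SE 0.07, adjusted p = 5.1e-08). The proteases of the first complement complex, C1S and C1R, rose by 0.65 and 0.64, and LY96 has been described. Of 37 interferon response genes 6 rose (16.2%), with a median of 0.29. GBP1, a guanylate-binding protein, read -0.06, 0.01 and 0.05 against 1.14, 1.35 and 1.26 (1.24, SE 0.08), and the exonuclease ISG20 read -0.38, -0.90 and -0.58 against 0.31, 0.50 and 0.42 (1.03, SE 0.11). PSMB9, an immunoproteasome subunit, rose by 0.66 and the transcription factor IRF7 by 0.56, the latter at 0.45 under housekeeping centring. Of 25 phospholipase and prostaglandin genes 3 rose (12%, against 3.42% of all genes tested). PLA2G4C, a cytosolic phospholipase, read 0.64, 0.63 and 0.64 against 2.05, 2.12 and 2.06 (1.44, SE 0.06, adjusted p = 1.5e-08). PTGS2, the inducible cyclooxygenase, stayed below siNT, with -1.20, -1.22 and -1.23 against -0.74, -0.54 and -0.83 (0.52, SE 0.10), and missed the minimum under housekeeping centring (0.41) and without siMESH1+siATF4 replicate 2 (0.43).

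Keratins and a surface mucin were among the epithelial genes that rose. Of 35 genes of junctions, keratins and integrins 8 rose (22.9%) and PERP fell, with a median of 0.13. KRT19, a keratin of simple epithelia, read -0.11, -0.15 and -0.19 against 1.01, 1.17 and 1.21 (1.28, SE 0.09). KRT18, a second simple epithelial keratin, read -0.48, -0.61 and -0.52 against 0.67, 0.66 and 0.55 (1.16, SE 0.06). MUC1, a surface mucin, read -0.87, -1.04 and -0.88 against 0.28, 0.15 and 0.28 (1.16, SE 0.07). Each of the 3 was below siNT in siMESH1 and above it with both silenced. Under housekeeping centring 5 of the 8 rises remained.

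Calls among matrix genes were all rises, while contractile genes held calls in both directions. Of 39 genes of the extracellular matrix and TGF-β targets 4 rose (10.3%, against 3.42% of all genes tested) and 0 fell (median 0.04). They were SPARC, LAMB3, MMP7 and LOX, the collagen cross-linking oxidase, which read -0.46, -0.55 and -0.50 against 0.33, 0.21 and 0.24 (0.76, SE 0.07). Of 22 smooth muscle contractile genes CNN1 rose, CAV1, the coat protein of caveolae, fell by 0.52 and CALD1, an actin-binding regulator of contraction, also fell by 0.52, with a median of 0.02. The 8 probe sets of CALD1 ranged from -1.30 to 0.43, and the gene stood at -0.11 without probe sets that may cross-hybridise, while CAV1 then stood at -0.46. Both genes also came short of the minimum, at -0.50 to -0.48, when single arrays were left out (siMESH1 replicate 1 or siMESH1+siATF4 replicate 1 or 2 for CAV1, siMESH1 replicate 3 or siMESH1+siATF4 replicate 2 for CALD1). Rises made up 4.5% of the contractile list and falls 9.1%, against 3.42% and 2.68% of all genes tested. Of 21 targets of the YAP and TAZ coactivators 2 rose and 2 fell (9.5% each way). CRIM1, a transmembrane binder of bone morphogenetic proteins, read 0.51, 0.32 and 0.43 against -0.82, -0.76 and -0.72 (-1.19, SE 0.09), and tissue factor, F3, read -1.74, -1.63 and -1.50 against -2.53, -2.43 and -2.38 (-0.82, SE 0.08). The ectonucleotidase NT5E (0.73) and the growth factor FGF1 (0.68, probe sets 0.37 and 1.00) rose.

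**Figure D3:**
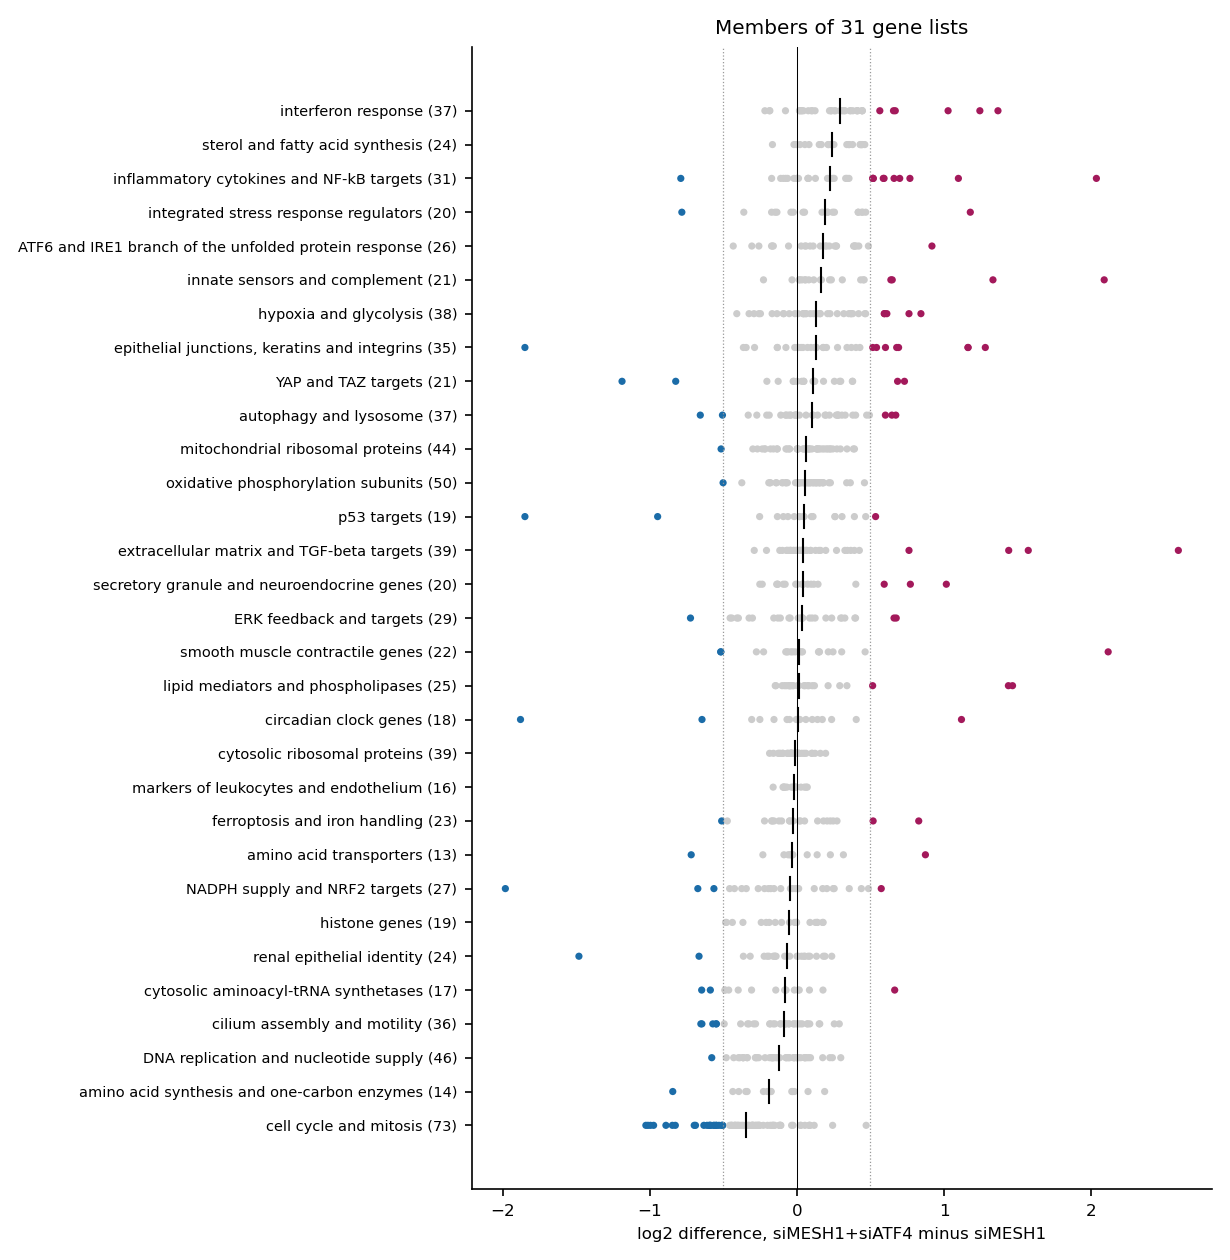
Log2 difference, siMESH1+siATF4 minus siMESH1 (x axis), of each measured member of 31 gene lists, ordered by the list median, with the number of measured members in parentheses. Magenta points rose, blue points fell, grey points were not called, black ticks are medians and dotted lines mark ±0.5. The interferon list has the highest median (0.29) and the cell cycle list the lowest (-0.34).

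The list of NADPH supply genes and NRF2 targets held 3 falls and 1 rise among 27 genes, with a median of -0.04. Falls made up 11.1% of it and rises 3.7%, against 2.68% and 3.42% of all genes tested. Beside AKR1B10, its relative AKR1C3, which reduces steroids and prostaglandins, read 0.52, 0.54 and 0.46 against -0.19, -0.12 and -0.20 (-0.67, SE 0.05, adjusted p = 9.0e-07). Thioredoxin reductase, TXNRD1, read 0.78, 0.69 and 0.64 against 0.12, 0.12 and 0.17 (-0.56, SE 0.05). All 3 had been above siNT in MESH1-silenced cells and moved toward or past it. PGD, which makes NADPH in the pentose phosphate pathway, rose by 0.57, or 0.46 under housekeeping centring. NADK, the cytosolic kinase that makes NADP, differed by -0.19 (SE 0.06, adjusted p = 0.019). Of 23 genes of ferroptosis and iron handling 2 rose (8.7%, against 3.42% of all genes tested) and 1 fell (4.3%, against 2.68%). TFRC, the transferrin receptor that brings in iron, read -1.19, -1.12 and -1.20 against -0.37, -0.33 and -0.32 (0.83, SE 0.05, adjusted p = 9.7e-08) and so moved back toward siNT without reaching it. The chaperone HSPB1 rose by 0.52 (0.41 under housekeeping centring and 0.48 without siMESH1 replicate 3 or siMESH1+siATF4 replicate 3), and ACSL4, which activates polyunsaturated fatty acids for membrane lipids, fell by 0.51 (0.66, 0.81 and 0.59 against 0.16, 0.23 and 0.14, adjusted p = 0.0093), with a value of -0.45 without siMESH1 replicate 2, -0.49 without siMESH1+siATF4 replicate 3 and -0.50, short of the minimum, with array median centring.

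Of 24 genes of sterol and fatty acid synthesis 0 were called, although the median was 0.24 and 3 values were below 0. INSIG2, which retains the sterol sensor in the ER, came nearest (0.46, SE 0.06, adjusted p = 7.9e-05), and ACLY, which makes cytosolic acetyl-CoA, read -1.47, -1.41 and -1.48 against -1.03, -0.98 and -1.01 (0.45, SE 0.05, adjusted p = 2.4e-05; probe sets 0.31 to 0.67). ACLY was higher on every array of the double silencing and still well below siNT. RCC4 cells lack VHL, so hypoxia-inducible factors are active in them without hypoxia. Of 38 hypoxia and glycolysis genes 5 rose (13.2%) and 0 fell, with a median of 0.13. CA12, a membrane carbonic anhydrase, read -1.62, -1.62 and -1.58 against -0.81, -0.68 and -0.81 (0.84, SE 0.05), although its 6 probe sets ranged from 0.13 to 1.14. P4HA2, a collagen prolyl hydroxylase, rose by 0.61, the glucose carrier SLC2A3 by 0.60 (0.49 under housekeeping centring) and the enolase ENO2 by 0.59 (0.48, and an adjusted p of 0.058 by the methods' t-test), while VEGFA, the angiogenic growth factor, differed by 0.37 (SE 0.06, adjusted p = 9.0e-04; probe sets 0.12 to 0.51). Of 19 p53 targets PERP and ZMAT3, an RNA-binding protein, fell (ZMAT3 0.64, 0.66 and 0.46 against -0.45, -0.37 and -0.26; -0.95, SE 0.07) and PMAIP1, a pro-death BCL2 family member, rose by 0.54 (0.43 under housekeeping centring, 0.48 without siMESH1 replicate 1 and 0.49 without siMESH1+siATF4 replicate 3). Falls made up 10.5% of the p53 list and rises 5.3%, against 2.68% and 3.42% of all genes tested. The study named ATF3, CTH, ACLY and RRM2 from these arrays or from PCR on the same cells. The lists that hold those genes do not count as independent evidence of their direction. By PCR the study found the rises of ATF3 and CTH abolished by ATF4 silencing, and ACLY and RRM2 unaffected. The array means in siMESH1 and siMESH1+siATF4 were 0.36 and 0.57 for ATF3 and 0.70 and 0.35 for CTH. They were -1.45 and -1.01 for ACLY and -3.48 and -3.43 for RRM2. ATF3 thus did not return toward siNT on the arrays.

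Cilium genes fell where they were called. Of 36 measured, 5 fell (13.9%) and 0 rose, with a median of -0.09. DYNC2LI1, a light intermediate chain of the retrograde cilium motor, read 0.91, 0.82 and 0.78 against 0.20, 0.13 and 0.23 (-0.65, SE 0.05). The transport proteins IFT57 (-0.65) and IFT22 (-0.55; -0.48 without siMESH1+siATF4 replicate 2 and -0.49 without siMESH1 replicate 3) and the BBSome subunit BBS1 (-0.57) shared this shape, with siMESH1 means of 0.44, 0.62 and 0.45 and siMESH1+siATF4 means of -0.21, 0.08 and -0.12. Of 37 autophagy and lysosome genes 3 rose (8.1%, against 3.42% of all genes tested) and 2 fell (5.4%, against 2.68%). ATP6V1A, a subunit of the lysosomal proton pump, rose by 0.67, the membrane glycoprotein LAMP1 by 0.65 (probe sets 0.43 to 0.86) and the protease CTSA by 0.60 (0.49 under housekeeping centring), and GABARAPL2, an LC3 relative, fell by 0.51 (-0.48 without siMESH1 replicate 2, -0.49 without siMESH1+siATF4 replicate 3 and with array median centring).

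The remaining lists held at most 3 calls each. Rises made up 15% of the secretory granule list, 6.9% of the ERK list and 5.6% of the clock list, against 3.42% of all genes tested. Falls made up 11.1% of the clock list, 8.3% of the renal list and 3.4% of the ERK list, against 2.68%. They made up 2.3% of the mitochondrial ribosomal list and 2% of the oxidative phosphorylation list. Of 18 clock genes BMAL2 and the repressor NR1D2 (-0.64, SE 0.13, adjusted p = 0.0019, or 0.071 by the methods' t-test) fell and HLF, a clock output factor, rose (-0.54, -0.57 and -0.54 against 0.54, 0.55 and 0.61; 1.12, SE 0.06). Of 29 ERK feedback genes DUSP6, the phosphatase of ERK, fell by 0.72, and the early gene IER3 (0.68) and the cytokine LIF (0.66) rose. Of 24 renal epithelial genes SLC17A3 and the carbonic anhydrase CA2 fell (CA2 -0.66, SE 0.06) and 0 rose. Of 20 secretory granule and neuroendocrine genes CHGB, a granin, read 0.78, 0.60 and 0.44 against 1.46, 1.88 and 1.53 (1.02, SE 0.13), and the neuropeptide precursor VGF (0.77) and ENO2 also rose. Of 44 mitochondrial ribosomal proteins MRPL13 fell by 0.51 (-0.44 without siMESH1+siATF4 replicate 3), and of 50 oxidative phosphorylation subunits NDUFAB1 fell by 0.50 (-0.47 without siMESH1 replicate 1 or siMESH1+siATF4 replicate 3, and -0.49 with array median centring). Of 39 cytosolic ribosomal proteins 0 were called, the largest difference being that of RPLP2 (0.20, adjusted p = 0.18). Under housekeeping centring the medians of 10 lists with a median of at most 0.11 turned below 0, among them the matrix, autophagy, p53, clock and oxidative phosphorylation lists.

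The same silencing step in cells with MESH1, siATF4 against siNT, shares no array with the comparison above. It called 780 genes (6.52% of the genes tested), 298 higher (2.49%) and 482 lower (4.03%). In both backgrounds 162 genes rose, which is 39.6% of the rises in MESH1-silenced cells and 54.4% of those in control cells. Likewise 174 genes fell in both, 54.2% of the falls in MESH1-silenced cells and 36.1% of those in control cells. The study left genes changed by siATF4 alone out of its ATF4-mediated set. It took them as off-target, given the low ATF4 level in RCC4 cells without stress. Whether the genes shared by both backgrounds changed through loss of ATF4 or through other targets of the siRNA pool was not tested. Across all 11963 genes, which are not independent replicates, the differences had a Pearson r of 0.60 and a Spearman rho of 0.50. ATF4 fell by 2.31 in control cells, PERP by 1.53, BMAL2 by 2.55, EPHA7 by 2.03, TMEM50A by 1.54 and VSTM4 by 1.28. SPARC rose there by 2.39, LY96 by 2.26, CNN1 by 1.63, PTPRR by 1.52, PLA1A by 1.72 and PLA2G4C by 1.90. Among the stress response genes, STC2 differed there by 1.27, NUPR1 by -1.02, ASNS by -1.19, SLC38A1 by -0.72, IARS1 by -0.67 and YARS1 by -0.71, each called in the same direction as in MESH1-silenced cells. The other two called genes of those lists were not called there, SLC36A1 at 0.40 (interaction 0.47, short of the minimum) and WARS1 at 0.07 (interaction 0.59, called). The only gene called in opposite directions was ATAD2.

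**Figure D4:**
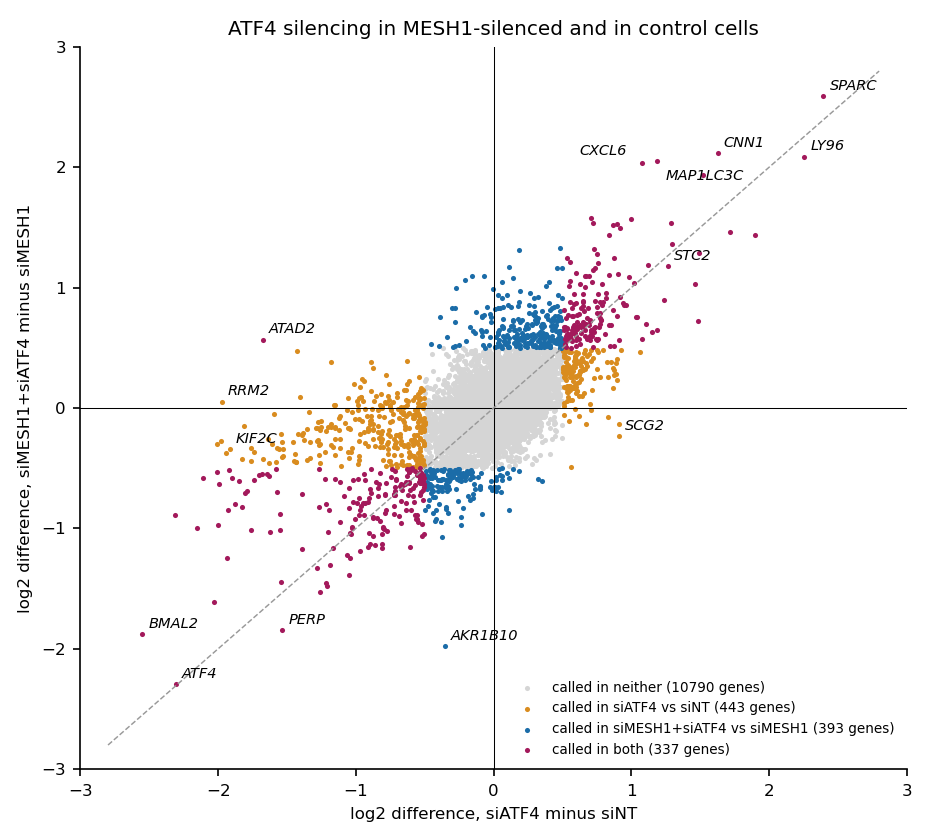
Log2 difference on ATF4 silencing in MESH1-silenced cells (siMESH1+siATF4 minus siMESH1, y axis) against that in control cells (siATF4 minus siNT, x axis) for 11963 genes, coloured by where they were called, with the dashed line marking equal differences. SPARC, LY96, ATF4 and PERP lie near the line, AKR1B10 lies at -1.98 on the y axis and -0.35 on the x axis, and ATAD2 and RRM2 lie far left of the line.

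Whether ATF4 silencing acted differently in the 2 backgrounds was tested by the interaction, the difference in MESH1-silenced cells minus that in control cells. It was called for 516 genes (4.31%), 414 above 0 (3.46%) and 102 below 0 (0.853%). This split turned with scaling: under housekeeping centring the all-gene median of the interaction moved by -0.26 and 196 genes were above 0 and 1261 below (13.5% above, against 80.2% on the deposited scale), without TFRC it was 217 and 769 (22.0%), and with array median centring 471 and 84 (84.9%). The 11 housekeeping genes themselves had an interaction median of 0.20, with 10 above 0 and 2 called. In siMESH1 against siNT their median was -0.21, with 10 below 0 and 3 called lower, where 643 of all 11963 genes were called lower. Of the 409 rises in MESH1-silenced cells 101 had an interaction call, and of the 321 falls 68 did.

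Division genes led the interaction above 0. Of the cell cycle list 67 of 73 genes were called above 0 and 0 below, with a median of 1.08, and of the replication list 39 of 46, with a median of 0.82. In control cells 70 of the cell cycle genes and 42 of the replication genes fell on ATF4 silencing, with medians of -1.43 and -0.97. The cell cycle list median relative to siNT was -1.69 in siMESH1, -1.43 in siATF4 and -1.98 with both. In siMESH1 against siNT 70 of the cell cycle genes and 43 of the replication genes were already called lower, against 643 of all 11963 genes tested. Whether this left less room for a further fall was not tested, since the values give no signal levels. ATAD2, a chromatin-associated ATPase, read -2.90, -2.63 and -2.78 in siMESH1 and -2.23, -2.29 and -2.08 in siMESH1+siATF4, a rise of 0.57 (adjusted p = 1.7e-04), while it fell by 1.68 in control cells (interaction 2.25, SE 0.11, adjusted p = 6.3e-07). Under housekeeping centring its rise in MESH1-silenced cells was 0.46. RRM2 fell by 1.98 in control cells (interaction 2.03, adjusted p = 5.1e-06). NDC80, a kinetochore protein, read -2.38, -2.43 and -2.15 against -1.75, -1.92 and -1.86, higher by 0.47 and below the minimum, and fell by 1.43 in control cells (interaction 1.90). SHCBP1, the condensin subunit NCAPG, the checkpoint protein MAD2L1 and the mitotic kinesins KIF2C and KIF23 all fell in control cells, with differences of -2.01, -1.98, -1.81, -1.92 and -1.95, and differed by -0.30, -0.27, -0.15, -0.34 and -0.37 in MESH1-silenced cells, where none passed the fold minimum.

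Genes with the interaction furthest below 0 were all above siNT in MESH1-silenced cells. AKR1B10 led them (interaction -1.63, SE 0.10, adjusted p = 2.3e-06), since it differed by -0.35 in control cells. SCG2, a granin of secretory vesicles, read 2.28, 2.42 and 2.44 in siMESH1 and 2.13, 2.19 and 2.12 with both silenced (-0.24, adjusted p = 0.086), but rose by 0.91 in control cells (interaction -1.14). TP53I3, a p53-induced oxidoreductase, followed the same course, with -0.13 in MESH1-silenced and 0.91 in control cells (interaction -1.04), as did the synaptic adhesion protein CLSTN2, with -0.08 and 0.83 (-0.91). The potassium channel KCNJ13 differed by -0.49, short of the minimum (-0.64 without siMESH1 replicate 2), and rose by 0.56 in control cells (-1.05). CLEC4E, a C-type lectin receptor (0.94, 0.78 and 0.77 against 0.07, 0.47 and 0.12), PLXDC2 (1.07, 1.15 and 1.44 against 0.37, 0.45 and 0.31) and the endocytic adaptor STON1 (1.40, 1.80 and 1.53 against 0.95, 1.01 and 1.01) fell by 0.61, 0.85 and 0.59 in MESH1-silenced cells and were at 0.35, 0.11 and 0.32 in control cells, none of these called. All 3 were separated by array, as was every gene called in the main comparison. STON1 was at -0.48 without siMESH1 replicate 2, and CLEC4E had an adjusted p of 0.052 by the methods' t-test.

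**Figure D5:**
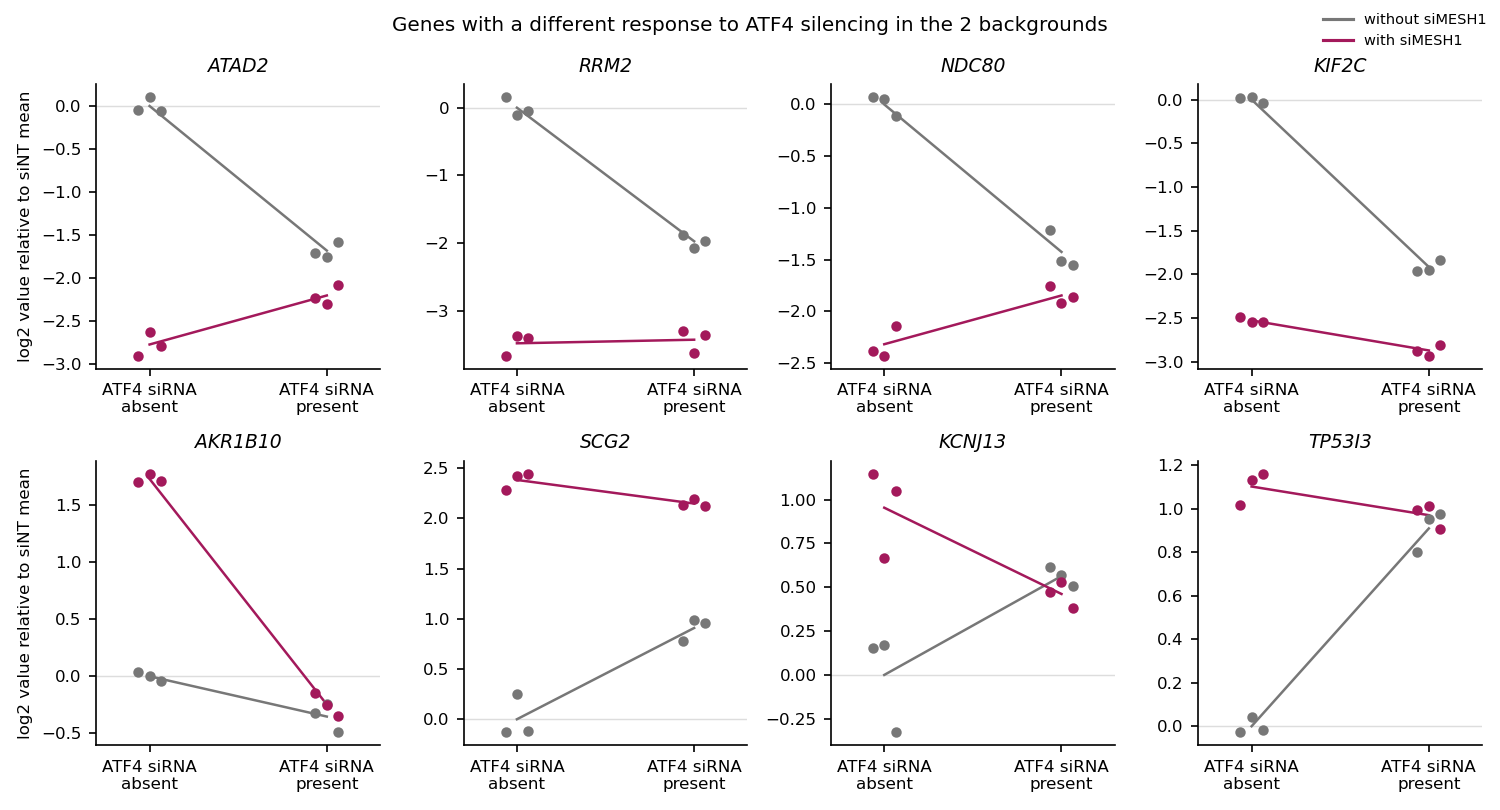
Log2 value relative to the siNT mean (y axis) without and with ATF4 siRNA (x axis) for 4 genes with an interaction above 0 (top) and 4 below 0 (bottom). Points are arrays, lines join group means (n = 3), grey is without and magenta with siMESH1. The grey lines fall steeply for ATAD2, RRM2, NDC80 and KIF2C while the magenta lines change by at most 0.57, and the magenta line of AKR1B10 falls from 1.73 to -0.25.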

How the data were processed

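Expression was measured on 12 Affymetrix arrays, 3 per group. The authors summarised the arrays with RMA in Affymetrix Expression Console (versions not given in the sources used here) and deposited log2 values from which the siNT mean of each probe set had been subtracted, checked here to lie within 1.2e-04 of 0. No level filter was possible, and the number of arrays limits the precision. Of 22277 probe sets, 19064 carried 1 symbol (19052 matched by Entrez identifier), 1043 several and 2108 none, and 62 were controls. All 12 arrays entered 1 fit in limma 3.58.1 (R 4.3.3; lmFit, eBayes) with 8 residual degrees of freedom, and p-values were adjusted by Benjamini-Hochberg over 11963 genes. Calls required an adjusted p under 0.05 and a difference of at least 0.5. SE and 95% intervals are those of the fit. The code was tested on simulated data. The lists, tests and named genes were chosen with earlier results of these data known. Named were ATF4, the study's genes, the 15 largest rises and falls, up to 4 called members per list or else the largest, the 8 largest interactions each way and the 6 largest genes shared by both backgrounds each way. Same-numbered siMESH1 and siMESH1+siATF4 arrays did not deviate together (r from -0.0073 to 0.070), so no block was used. Alternatives covered scaling, probe set choice, arrays fitted, variance moderation, the methods' t-test and each array left out. Python 3.11.15, pandas 2.3.3, numpy 2.4.6, scipy 1.17.1 and matplotlib 3.10.9 were used.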

Additional observations from a re-analysis of the deposited data

Results flagged for a closer look

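The effect of ATF4 silencing differed between MESH1-silenced and control cells, by the interaction test, for 516 genes, 48 of which are named here with their interaction (log2 difference in MESH1-silenced cells minus that in control cells). Above 0 stood the division genes ATAD2 (2.25), RRM2 (2.03), NDC80 (1.90), SHCBP1 (1.71), NCAPG (1.71), MAD2L1 (1.66), KIF2C (1.57), KIF23 (1.57), MCM10 (1.32), CCNB1 (1.15), HMMR (1.14), CCNB2 (1.00), TRIP13 (0.75) and CENPQ (0.69). These division genes were already below siNT in siMESH1, and their room for a further fall was not tested. Metabolic, iron, oxygen and stress genes above 0 were CA12 (0.89), TFRC (0.80), ACLY (0.79), ERO1A (0.62), ENO2 (0.62), INSIG2 (0.60) and WARS1 (0.59), with PMAIP1 at 0.99.

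Among inflammatory and vascular genes CXCL6 had an interaction of 0.96, THBD of 0.88, C3 of 0.85, ANXA3 of 0.81 and PTGS2 of 0.79. Epithelial, matrix and other genes above 0 were MAP1LC3C (0.86), MUC1 (0.70), BMAL2 (0.67), KRT18 (0.67), OLFML3 (0.66), EFEMP1 (0.64), MMP7 (0.60), SLC22A4 (0.58), LAMB3 (0.57), KRT19 (0.53) and HLF (0.52). Below 0 were AKR1B10 (-1.63), SCG2 (-1.14), KCNJ13 (-1.05), TP53I3 (-1.04), CLEC4E (-0.96), PLXDC2 (-0.96), STON1 (-0.91), CLSTN2 (-0.91), ZMAT3 (-0.57) and DYNC2LI1 (-0.55). Under housekeeping centring 16 of these calls were lost, all above 0: BMAL2, CENPQ, LAMB3, EFEMP1, OLFML3, SLC22A4, MMP7, WARS1, ERO1A, TRIP13, INSIG2, HLF, KRT18, MUC1, KRT19 and ENO2. The MMP7 call was also lost with the replicate block (adjusted p = 0.059) and when any of 7 arrays was left out, namely siMESH1+siATF4 replicate 1 or 3, siATF4 replicate 1, siMESH1 replicate 2 or 3 and siNT replicate 1 or 2 (limma adjusted p from 0.059 to 0.091). HLF (0.48 to 0.50) and KRT19 (0.43 to 0.49) came short of the minimum without siNT replicate 2, siATF4 replicate 1 or siMESH1+siATF4 replicate 3, and ENO2 lost its call without siMESH1+siATF4 replicate 1 (adjusted p = 0.051).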

How the results depend on the processing

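No gene called in the main comparison or the interaction changed sign in the fits with 1 value per gene under another scaling, probe set choice, replicate block, robust variances or a left-out array. Of the named genes called in the main comparison, single probe sets of CALD1 differed in sign. Among named genes not called there, those of RRM2 and E2F1 did. Housekeeping centring kept 583 of the 730 calls, and gave 262 rises and 549 falls. It gave 1457 interaction calls, of which 298 were among the 516, and 2817 calls for siMESH1 against siNT. Without TFRC, an alternative chosen after the data were seen, the counts were 986 and 1878. Testing each probe set gave 1276 calls (716 higher, 560 lower), 1313 for siATF4 against siNT, 855 for the interaction and 1706 for siMESH1 against siNT. Without a fold minimum these were 3348 (1870 higher, 1478 lower), 3421, 1424 and 4019. Without probe sets that may cross-hybridise there were 547 calls, and 466 of the 730 remained. Genes read only by such probe sets dropped out there and could not be called. Leaving out each array gave 737 to 759 calls (403 to 438 higher, 301 to 348 lower), 778 to 815 for siATF4 against siNT, 478 to 562 for the interaction, 984 to 1023 for siMESH1 against siNT, and -2.34 to -2.23 for ATF4. With the replicate block the comparison again gave 730 calls (409 higher, 321 lower) and the interaction 517. The methods' t-test gave 728 calls unadjusted and 675 after Benjamini-Hochberg adjustment. The limma p-values set each difference against the spread between 3 biological replicates per group, pooled over the 4 groups and moderated across genes. Signal over background could not be read from values relative to siNT.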
